A study of Mus musculus with 24 samples.

Results

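MycER WT cells after 8 h of OHT were compared with the same cells after 4 h. The members were the 6 RNA-seq libraries labelled MycER WT, 3 at each time, of 24 libraries in the series. Of 21671 genes, 12268 reached an RPKM (reads per kilobase of gene, scaled to the library's total) of 1 in 3 or more libraries and entered the test. The cells were 3T9, mouse fibroblasts that grow without limit, which carried either an empty vector (EV) or BP-MycER-WT, BP-MycER-HEA or BP-MycER-RA after infection, and every group was kept in OHT for 4 h or 8 h. HEA and RA are mutant forms of Myc whose altered residues the labels do not name. No library without OHT was analysed here, so the earlier time is not a baseline, and the EV cells served as the control for time in OHT. MycER came from an infected vector and the cells kept their own Myc. Libraries are numbered 1 to 3 in the labels, and nothing there says that they came from separate cultures. The p-values thus measure only the spread between samples, and that spread may be technical.

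MycER is the transcription factor Myc fused to the part of the oestrogen receptor that binds hormone. Until 4-hydroxytamoxifen (OHT) binds, such fusions are held inactive by chaperones, and OHT releases them, so that genes that respond soon can be separated from those that respond late. Myc works as a dimer with Max on DNA, most tightly on the E-box CACGTG, and is known in fibroblasts for raising genes of ribosome production and metabolism and for lowering genes of adhesion, matrix and growth arrest. The Mxd proteins compete with Myc for Max.

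Levels below are RPKM, and group levels are means ± SD of 3 libraries. Changes are log2 fold changes ± SE of 8 h over 4 h on the scale of log2(RPKM + 0.5), which understates changes of genes of low level, and adjusted p-values come from limma with Benjamini-Hochberg adjustment over all tested genes, with 0.05 as the threshold. Depth was 9818317 to 10544231 reads per WT library at 4 h and 10083465 to 11279417 at 8 h. Along the main axis of the spread between libraries of a group, which held 32.0% of that spread, 3 libraries stood apart. WT 4 h replicate 3 lay at 23.4, WT 8 h replicate 3 at -23.1 and EV 4 h replicate 2 at -20.7, while the others lay between -15.5 and 15.4. Over 12268 genes, the WT change from 4 h to 8 h had a Spearman correlation of -0.30 with the genes' weights on this axis. Without WT 4 h replicate 3 in the change it was 0.084. The same libraries enter both values, and the part of this axis in the changes was not tested. Of 13 measured fibroblast markers, 11 had an RPKM of at least 1 in every WT library, with a sum of 862 to 935 at 4 h and 798 to 937 at 8 h. The summed level of 10 macrophage markers was 20.2 to 20.5 at 4 h and 24.2 to 26.5 at 8 h, with 3 to 5 of them at 0, and that of 9 endothelial markers was 1.18 to 1.41 at 4 h and 2.22 to 2.61 at 8 h. Epithelial markers summed to at most 1.61 in any of these libraries, with 5 to 8 of 11 at 0, and 10 adipocyte markers to 6.04 to 8.44 at 4 h and 5.66 to 8.19 at 8 h, and the part of other cells in the results was not tested.

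The labels of EV against MycER cells were checked on Esr1, whose hormone-binding part is in the fusion. Its level was 12.1, 11.2 and 12.5 in the 3 WT libraries at 4 h and 11, 9.04 and 13.7 at 8 h, against 0.277 ± 0.12 and 0.189 ± 0.097 in EV cells at 4 h and 8 h. The WT libraries of both times overlapped, with a change of -0.10 ± 0.14 (adjusted p = 0.701). HEA and RA cells had means of 11.5 and 11.7 at 4 h and of 10.2 and 11.2 at 8 h. Esr1 thus cannot check the WT label against HEA or RA, nor 4 h against 8 h. Myc reads, which may come from the cells' own gene and from the vector, gave 46.8, 46.9 and 29.0 at 4 h and 29.3, 40.0 and 47.1 at 8 h, also overlapping (-0.07 ± 0.17, adjusted p = 0.836). EV cells had more Myc reads, 57.2 ± 4.7 at 4 h and 58.2 ± 1.9 at 8 h. Relative to EV, WT stood at -0.51 at 4 h (adjusted p = 0.0286) and -0.60 at 8 h (0.00754). No change in either transcript between the times was detected at this spread.

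From 4 h to 8 h, 547 genes rose and 491 fell in WT cells, 4.46% and 4% of the genes tested and 8.46% together. Most changes were small: the median size of a called change was 0.45 on the log2 scale, 11 genes rose at least 2-fold and 13 fell at least 2-fold. Without WT 4 h replicate 3, 169 genes rose and 282 fell, and 151 and 229 of these were among the genes called with it. Without WT 8 h replicate 1, 126 rose and 164 fell, and without WT 8 h replicate 3 the rises were 280. In all 6 fits that left out a single WT library, 87 rises and 129 falls were kept. The split between rises and falls depended on the scaling and on the libraries: 52.7% of the called genes rose as deposited, and 38.1% after median centring of the libraries. Leaving out single WT libraries gave 37.5% (without WT 4 h replicate 3) to 60.6% (without WT 4 h replicate 1). A fit on the 6 WT libraries alone called 0 genes with limma (1978 at an unadjusted p under 0.05), so every call rests on the spread shared by the 8 groups.

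**Figure D1:**
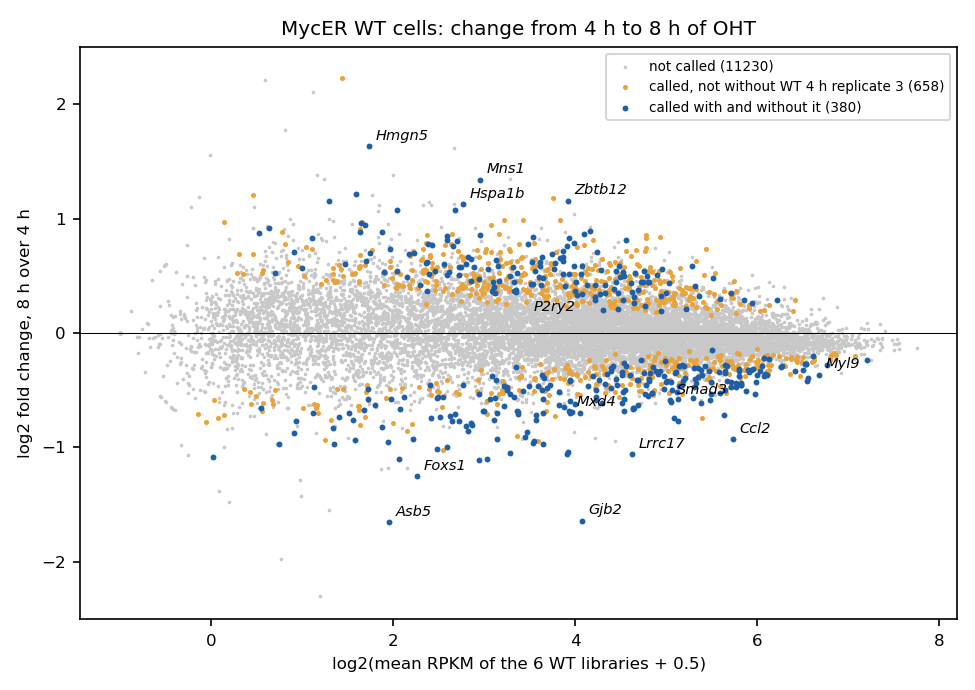
Each point is a tested gene, with its level in WT cells as log2(mean RPKM of 6 libraries + 0.5) on the horizontal axis and its log2 fold change of 8 h over 4 h on the vertical axis. Blue points, 380 genes, passed the test with and without WT 4 h replicate 3, and orange points passed only with it.

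Of 15 genes that led the difference of WT from EV cells in earlier results of these data, 10 did not pass the test between 4 h and 8 h. P2ry2, a receptor for extracellular nucleotides, gave 9.77, 9.28 and 11.1 in the WT libraries at 4 h and 11.7, 11.3 and 10.3 at 8 h. EV cells had 1.37 ± 0.035 at 4 h and 0.875 ± 0.23 at 8 h, so every WT library lay far above every EV library at both times, while the WT times overlapped (0.14 ± 0.14, adjusted p = 0.577). Its log2 fold change over EV was 2.49 ± 0.14 at 4 h and 3.09 ± 0.14 at 8 h. Rgcc, a regulator of the cell cycle, was 2.90 over EV at 4 h and 2.15 at 8 h, with overlapping WT libraries (adjusted p = 0.693). Of the lowered leaders, Ccng2, a cyclin linked to growth arrest, was -2.04 relative to EV at 4 h and -2.05 at 8 h. Its WT libraries at 8 h all lay above those at 4 h, without passing (0.35, adjusted p = 0.168). Adamts4 and Adamts7, secreted proteases that cut matrix proteins, were at -1.86 and -1.94 relative to EV at 4 h and at -1.74 and -1.87 at 8 h.

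The other 5 of the 15 changed between the times, 3 upward and 2 downward. Dgat2, an enzyme of triglyceride synthesis, rose from 18.7, 16.8 and 19.3 to 25.2, 25.2 and 27.1 (0.49 ± 0.13, adjusted p = 0.0218, and 0.0457 without WT 4 h replicate 3). Its call was lost without WT 4 h replicate 2 (adjusted p = 0.0715), WT 8 h replicate 1 (0.0608) or WT 8 h replicate 3 (0.0714). Reep6, a protein that shapes the endoplasmic reticulum, rose by 0.99 ± 0.24 (adjusted p = 0.0168), but not without WT 4 h replicate 3 (0.0774) or WT 8 h replicate 1 (0.0895). Ica1, a protein of secretory vesicle membranes, rose by 0.42 ± 0.13 (adjusted p = 0.0474), and leaving out any WT library but WT 4 h replicate 3 ended its call (adjusted p 0.074 to 0.156). Asb5 and Foxs1 fell, and their values are given with the largest falls.

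**Figure D2:**
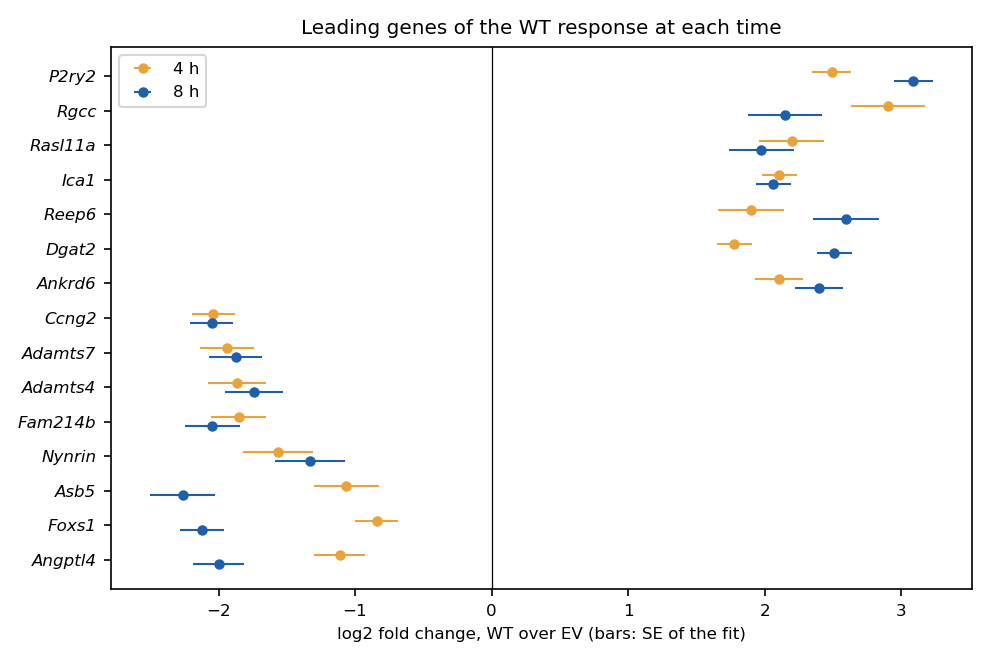
Points are log2 fold changes of WT over EV at 4 h (orange) and 8 h (blue) for the 15 leaders of the WT response, and bars are SEs of the fit. P2ry2 stands at 2.49 and 3.09, Ccng2 at -2.04 and -2.05, while Foxs1 moves from -0.84 to -2.12.

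In the network of Myc, Max and Mxd genes, 11 were tested, 1 rose and 1 fell, with a median change of 0.13 beside -0.0013 over all genes tested. Mxd4, a partner of Max that competes with Myc, gave 20.7, 16.2 and 18.8 at 4 h and 9.65, 11.4 and 12.8 at 8 h. All 3 later libraries lay below the earlier ones, and the fall was -0.70 ± 0.15 (adjusted p = 0.00849, and 0.0322 without WT 4 h replicate 3), but it did not pass without WT 8 h replicate 1 (0.0561). Relative to EV its log2 fold change was -0.15 at 4 h and -1.06 at 8 h. Mxd1, another such partner, rose by 0.58 ± 0.17 from a low level of 2.01 ± 0.61 (adjusted p = 0.0428), but not without WT 4 h replicate 3 (0.236). The promoters of P2ry2, level and high from 4 h, and of Mxd4, lower at 8 h, are shown because both carry the E-box. The sequences are the 250 bases before the start site from RefSeq (build GRCm38.p6, minus strand, chr7:101011999-101012248 for the second of 2 P2ry2 start sites and chr5:34187711-34187960 for Mxd4), and capitals mark CACGTG.
P2ry2: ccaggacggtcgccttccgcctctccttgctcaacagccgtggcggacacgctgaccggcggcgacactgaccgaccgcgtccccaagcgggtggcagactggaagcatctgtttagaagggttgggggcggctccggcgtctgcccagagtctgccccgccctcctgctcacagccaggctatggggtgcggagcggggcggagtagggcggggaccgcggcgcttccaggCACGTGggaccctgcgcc
Mxd4: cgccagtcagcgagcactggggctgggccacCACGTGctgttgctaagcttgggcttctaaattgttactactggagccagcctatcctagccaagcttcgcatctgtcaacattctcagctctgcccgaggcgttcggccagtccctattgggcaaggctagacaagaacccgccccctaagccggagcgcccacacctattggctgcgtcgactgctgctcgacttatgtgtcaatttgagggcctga
Relative to the start site the motif begins at position -18 in P2ry2 and -219 in Mxd4. CACGTG, which reads the same on both strands, occurred in 7.15% of all 32851 promoter windows of 300 bases (250 before and 50 after a start site). It occurred in 3 of the 9 leaders of the response that had a window, in 0 of 9 of the largest rises and in 0 of 8 of the largest falls below. These counts are of genes, with a match in any window of the gene, so they are not on the scale of the share of windows. A match is a description of letters and not a measured binding site.

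The 12 largest rises were taken from 143 genes that rose with and without WT 4 h replicate 3, had no overlap between the times and a mean of at least 1 RPKM. The lack of overlap was thus a condition of the choice, here and for the largest falls below. Of all genes tested, the 3 libraries at 8 h lay all above those at 4 h in 13.5% and all below in 11.1%. Mns1, a structural protein of cilia and sperm tails, gave 4.20, 3.66 and 3.77 at 4 h and 12.4, 10.8 and 8.83 at 8 h. Every later library was above every earlier one (1.34 ± 0.15, adjusted p = 5.3e-05, and 0.000295 without WT 4 h replicate 3). EV cells went from 4.21 ± 0.50 to 5.87 ± 0.33 (0.44, adjusted p = 0.28) and HEA cells from 19.7 ± 4.7 to 28.1 ± 2.6 (0.53, 0.0611). In RA cells Mns1 rose too, from 2.55 ± 0.35 to 5.37 ± 0.66 (0.94, 0.0186). Hmgn5, a nucleosome-binding protein, rose most, from 1.69, 0.788 and 0.961 to 3.90, 4.28 and 5.35 (1.63 ± 0.36, adjusted p = 0.0095). Its 4 h libraries lay under the EV level of 3.73 ± 1.5 at that time, and at 8 h WT and EV stood at 4.51 ± 0.75 and 6.07 ± 0.57. Tnfrsf22, a decoy receptor for a death ligand, likewise went from 3.65 ± 0.76 to 8.16 ± 0.25, beside 6.24 ± 0.85 and 9.58 ± 0.70 in EV cells, a rise of 1.08 ± 0.15 (adjusted p = 0.000278).

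Slc38a3, a glutamine transporter, was low in EV cells, at 0.0692 ± 0.013 at 4 h and 0.0578 ± 0.051 at 8 h. In WT cells it gave 0.945, 1.03 and 0.981 at 4 h and 3.90, 2.97 and 1.84 at 8 h, with a log2 fold change over EV of 1.38 at 4 h and 2.57 at 8 h. Slc38a3 reached RPKM 1 in 3 libraries only through the 8 h libraries of WT cells, so its rise of 1.15 ± 0.21 is given as a description, with no test. The same holds for 44 genes of the 12268, of which 5 are among the 547 rises. Tspan33, a membrane protein of the tetraspanin family, was also low in EV cells, at 0.0896 ± 0.04 at 4 h, and rose in WT cells from 0.578 ± 0.25 to 1.53 ± 0.36 (0.92 ± 0.18, adjusted p = 0.00466). Relative to EV, Tspan33 stood at 0.85 at 4 h and 1.51 at 8 h on the log2 scale. The other rises were Ranbp3l (1.22), Zbtb12 (1.16), Hspa1b (1.12), Map2k6 (1.07), Slco4a1 (0.96), Efnb3 (0.94) and Zcchc10 (0.89). Of these, Map2k6, a kinase upstream of p38, did not pass without WT 8 h replicate 1 (adjusted p = 0.056), nor did Zcchc10 (0.0596). Slco4a1, a transporter of organic anions, did not pass without that library (0.0916) or without WT 4 h replicate 1 (0.051). The other 9 of the 12 passed in all 6 fits that left out a WT library. Slc38a3 is counted among these 9, but its passing is no support, because the filter admitted it only through the 8 h libraries.

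The 12 largest falls, chosen from 205 genes by the same conditions, all passed in each of those 6 fits. Passing without WT 4 h replicate 3 and having no overlap were conditions of the choice and hold by construction. Gjb2, a connexin of gap junctions, gave 26.1, 28.2 and 20.9 at 4 h and 6.11, 9.55 and 7.63 at 8 h (-1.64 ± 0.15, adjusted p = 6.05e-06). The time groups were far apart, and EV cells also fell, from 29.8 ± 2.9 to 13.4 ± 1.8 (-1.12 ± 0.15, adjusted p = 0.0054). Asb5, an ankyrin-repeat protein that helps mark other proteins for degradation, fell by 1.65 ± 0.24, from 4.20, 6.35 and 5.55 to 1.08, 2.02 and 1.07 (adjusted p = 0.000377). Foxs1, a forkhead transcription factor, fell from 6.22, 7.34 and 5.13 to 1.64, 3.31 and 2.19 (-1.25 ± 0.16, adjusted p = 0.000176, and 0.000213 without WT 4 h replicate 3). EV cells kept 11.5 ± 0.98 and 11.7 ± 0.29 of Foxs1, so that WT cells were -0.84 relative to EV at 4 h and -2.12 at 8 h.

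Lrrc17, a secreted leucine-rich protein, gave 33.1, 29.5 and 36.2 at 4 h and 16.8, 16.4 and 13.5 at 8 h, with no overlap (-1.06 ± 0.15, adjusted p = 0.000354). Its level in EV cells was 39.5 ± 6.1 and 36.3 ± 0.39 (adjusted p = 0.758). Rasgrp3, which activates Ras, fell from 6.98 ± 0.59 to 3.22 ± 0.50 (-1.01 ± 0.12, adjusted p = 5.3e-05). The skeletal and smooth muscle actins Acta1 and Actg2 fell by 1.10 ± 0.16 and 1.00 ± 0.18, and Fbxo32, a ubiquitin ligase of muscle wasting, by 1.04 ± 0.15. Acta1 took part of the summed level of 10 muscle markers, which was 4.95 to 7.08 at 4 h and 2.91 to 4.51 at 8 h, and 1 other of these markers passed the filter without a call. Traf1, Vldlr, Ccl7 and Nipal1 completed the list with falls between 1.05 and 1.11 on the log2 scale.

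**Figure D3:**
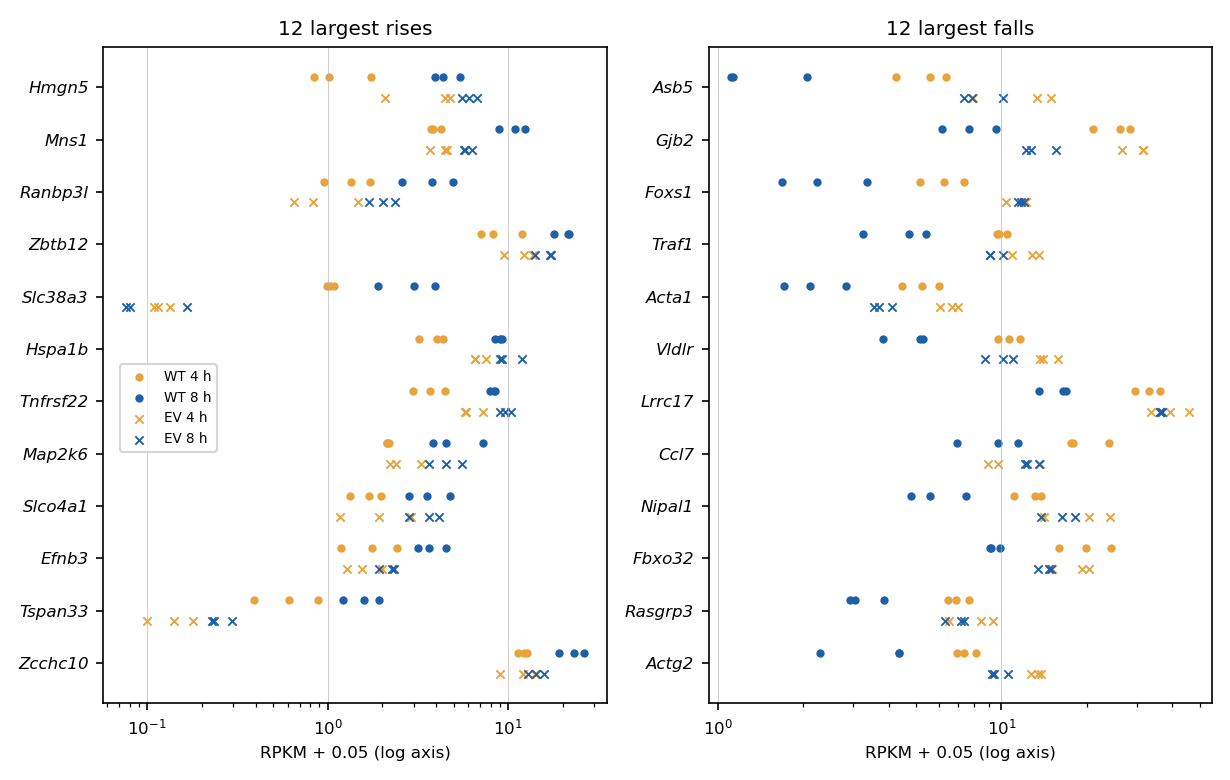
RPKM + 0.05 on a log axis in each WT library (circles) and EV library (crosses) at 4 h (orange) and 8 h (blue), for the 12 largest rises (left) and falls (right). The WT circles of the 2 times do not overlap in any of these genes, which was a condition of their choice. Slc38a3 and Tspan33 are low in all EV libraries, and Foxs1 and Lrrc17 lie high in EV libraries of both times.

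The following lists of genes are counted beside the 4.46% and 4% of all genes that rose and fell, and a count is a description and not a test of the list. Calls over all 12268 genes also became fewer when a library was left out. They were 169 rises and 282 falls without WT 4 h replicate 3, and 126 and 164 without WT 8 h replicate 1. A lower list count in those fits thus does not show a weaker list. In TGF-beta and BMP signalling, the pathway from secreted ligands through kinase receptors to Smad transcription factors, 6 of 34 fell (17.6%) and 0 rose, with a median of -0.13. The median was -0.085 in EV, -0.090 in HEA and -0.033 in RA cells, and in HEA cells 4 of the 34 fell, beside 2.08% of all genes. Among ligands and their antagonists, Bmp4 fell from 40.3 ± 2.1 to 29.2 ± 2.6 (-0.46 ± 0.097, adjusted p = 0.00716), the BMP antagonist Grem1 from 118, 118 and 120 to 94.9, 98.7 and 99.4 (-0.28 ± 0.049, adjusted p = 0.00251) and the activin antagonist Fst by 0.68 ± 0.14 (adjusted p = 0.00652). The receptor Tgfbr2 gave 60.5, 62.8 and 58.2 at 4 h and 39.8, 47.5 and 43.4 at 8 h. All its later libraries were lower (-0.47 ± 0.067, adjusted p = 0.000357), and EV cells had 68.4 ± 1.8 and 64.6 ± 1.7. Without WT 4 h replicate 3, 5 of 34 fell, and without WT 8 h replicate 1 there were 3, with Smad3, Tgfbr2 and Grem1 passing in all 6 fits.

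Smad3, the transcription factor at the end of TGF-beta and activin signalling, gave 41.0, 37.4 and 39.2 in WT cells at 4 h and 25.4, 24.9 and 27.5 at 8 h. The fall was -0.59 ± 0.055 (adjusted p = 6.05e-06, and 5.74e-05 without WT 4 h replicate 3). EV cells had 44.6, 44.3 and 43.0 at 4 h and 41.5, 39.4 and 41.8 at 8 h, so the WT libraries at 4 h lay just under the EV ones and those at 8 h well below. Its promoter, shown because its change also differed from that in EV cells, holds no CACGTG in the 300-base window (250 bases before the start site, RefSeq, GRCm38.p6, minus strand, chr9:63757995-63758244).
Smad3: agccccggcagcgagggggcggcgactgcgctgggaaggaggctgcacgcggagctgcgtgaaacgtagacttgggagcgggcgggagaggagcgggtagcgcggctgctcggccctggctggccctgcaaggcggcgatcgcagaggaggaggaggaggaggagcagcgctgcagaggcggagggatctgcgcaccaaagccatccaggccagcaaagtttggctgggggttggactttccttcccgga
No match says only that these letters are not in this window.

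In interferon and inflammation, 7 of 23 fell (30.4%) and 1 rose, with a median of -0.11, and without WT 4 h replicate 3 the counts were 5 and 0 with a median of -0.0096. The median was 0.051 in EV, -0.0020 in HEA and 0.011 in RA cells. The members that fell were chemokines, an adhesion molecule and genes of NF-kappaB signalling. Ccl2, a chemokine that draws monocytes, gave 57.7, 71.9 and 77.7 at 4 h and 37.5, 46.3 and 26.4 at 8 h (-0.93 ± 0.15, adjusted p = 0.00117). The 2 times did not overlap, and EV cells had 54.5 ± 9.8 and 53.6 ± 1.9. Relative to EV, WT was at 0.35 at 4 h, without passing (adjusted p = 0.0953), and at -0.57 at 8 h (0.00522). Its neighbour in function Ccl7 fell too, with 17.6, 17.8 and 23.8 at 4 h and 9.65, 11.4 and 6.95 at 8 h (-1.05 ± 0.17, adjusted p = 0.00136). Relative to EV, Ccl7 was at 0.86 at 4 h (adjusted p = 0.0011) and at -0.44 at 8 h, without passing (0.055). A move from above EV to below it was thus not shown for either gene. The NF-kappaB subunit Relb fell by 0.86 ± 0.16 (adjusted p = 0.00283), the inhibitors of the pathway Tnfaip3 and Nfkbia by 0.50 and 0.30, and Vcam1 and Tnfaip2 by 0.38 and 0.50. Stat2, of the interferon pathway, rose by 0.68 ± 0.19 (adjusted p = 0.0273), but not without WT 4 h replicate 3 (0.165). Without WT 8 h replicate 1 the falls were 3, and these, Ccl2, Ccl7 and Relb, passed in all 6 fits.

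Of the targets of ATF4, the factor that raises amino acid supply under stress, 8 of 27 fell (29.6%) and 0 rose, with a median of -0.16. In EV, HEA and RA cells the median was -0.10, -0.060 and -0.031. Slc7a11, which imports cystine, gave 13.5, 14.6 and 13.3 at 4 h and 6.42, 8.53 and 7.18 at 8 h (-0.87 ± 0.12, adjusted p = 0.000357). Chac1, which breaks down glutathione, gave 31.8, 29.4 and 28.7 at 4 h and 18.4, 19.6 and 18.4 at 8 h (-0.66 ± 0.095, adjusted p = 0.000377), while EV cells had 38.8 ± 3.0 and 39.6 ± 3.1. Both genes were lower in every later WT library. Nupr1, a stress-induced chromatin protein, fell from 77.0 ± 0.83 to 59.6 ± 0.77 (-0.37 ± 0.058, adjusted p = 0.000971). The others were Vldlr (-1.10), a lipoprotein receptor, Herpud1 (-0.34), of protein degradation at the endoplasmic reticulum, Pck2 (-0.50), Psph (-0.36), of serine synthesis, and Sesn2 (-0.56), whose libraries overlapped between the times. The falls were 7 without WT 4 h replicate 3 and 5 without WT 8 h replicate 1.

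Among actin genes and targets of SRF and YAP, which make and follow the contractile cytoskeleton, 8 of 26 fell (30.8%) and 0 rose, with a median of -0.19, beside -0.12 in EV, -0.10 in HEA and -0.075 in RA cells. Myl9, a light chain of myosin, gave 114, 112 and 120 at 4 h and 87.0, 90.9 and 90.3 at 8 h (-0.36 ± 0.059, adjusted p = 0.00118). Csrp1, a protein of actin bundles, fell from 65.5, 60.1 and 69.7 to 44.6, 50.9 and 47.0 (-0.45 ± 0.08, adjusted p = 0.00251). For both, the later libraries lay below the earlier ones, and EV cells moved from 115 ± 6.2 to 104 ± 6.9 for Myl9 (adjusted p = 0.372). Acta2 (-0.29), Fhl2 (-0.42), Actg2 (-0.997), Tagln (-0.25), Cnn2 (-0.20) and Cnn1 (-0.62) also fell. The count was 8 without WT 4 h replicate 3 and 5 without WT 8 h replicate 1.

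In the extracellular matrix list, 5 of 35 fell (14.3%), among them Thbs1, Lox and Col5a2 with changes of -0.23, -0.20 and -0.21, and 0 rose. The median was -0.17, beside -0.13 in EV cells. The other 2 were Tnc (-0.38) and Col8a1 (-0.36). None of the 5 passed in all 6 fits, with 3 falls without WT 4 h replicate 3 and 0 without WT 8 h replicate 1. Many of these genes are abundant: 6 of 26 actin genes and 9 of 35 matrix genes were above 1 read per base. Over all 244 genes above that level the median change was -0.092, and 22 fell and 0 rose. The part of read density in these falls was not tested.

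Ribosome biogenesis, the best known of the processes that Myc raises, showed 0 of 47 genes called in either direction with limma, with a median of 0.020. The median was -0.060 in EV, -0.034 in HEA and -0.024 in RA cells. The difference of the WT change from the EV change had a median of 0.088, beside -0.021 over all genes, and 0 of the 47 were called for it. Relative to EV, 31 of these 47 were higher at 4 h (11.6% of all genes) and 38 at 8 h (15.2% of all genes), and 0 were lower at either time. Without WT 4 h replicate 3 they were 28 at 4 h (7.49% of all genes) and 39 at 8 h (16.4% of all genes). Nucleotide and one-carbon metabolism was alike, with 1 of 30 called between the times (Impdh1, 0.46, lost without WT 4 h replicate 3 at adjusted p = 0.206) and 16 and 17 higher than EV at 4 h and 8 h (11 and 17 without that library). Of translation factors and tRNA synthetases 2 of 34 fell, Tars by 0.20 and Eprs by 0.17, but Eprs did not pass without WT 4 h replicate 3 (adjusted p = 0.148) and neither did without WT 8 h replicate 1 (0.0562 and 0.0796). Of mitochondrial biogenesis genes 2 of 32 rose, and 1 without WT 4 h replicate 3. They included Ppargc1b, a coactivator of mitochondrial genes, which went from 1.01 ± 0.19 to 2.11 ± 0.82 and, like Slc38a3, passed the filter only through the 8 h libraries of WT cells, so no test is given for it. Ppargc1b was at 0.140 and 0.0994 in EV cells.

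Of genes for G1/S control and replication, 4 of 40 rose (10%) and 0 fell, with a median of 0.084, beside 0.094 in EV and 0.19 in HEA cells. E2f2, a factor that drives entry into S phase, gave 3.80, 3.41 and 4.13 at 4 h and 7.94, 6.15 and 7.64 at 8 h (0.85 ± 0.17, adjusted p = 0.00455). Chaf1a, which loads histones onto new DNA, rose from 26.2, 25.0 and 21.5 to 33.1, 33.2 and 37.7 (0.51 ± 0.088, adjusted p = 0.00193). Both were higher in every later library and passed in all 6 fits, whereas E2f1 (0.59) and the replication factor Mcm10 (0.29) did not pass without WT 4 h replicate 3 (adjusted p = 0.15 and 0.0688). Of 36 mitosis genes, 5 fell (13.9%), with a median of -0.091 beside -0.078 in EV cells. Ccnb2, cyclin B2, gave 40.2, 35.8 and 48.6 at 4 h and 27.5, 27.0 and 27.7 at 8 h (-0.58 ± 0.098, adjusted p = 0.00172), with EV at 44.7 and 44.5. Kif4, Tpx2, Cdc20 and Cdc25c fell by 0.19 to 0.35, and only Ccnb2 of the 5 passed without WT 4 h replicate 3.

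Cytosolic chaperones, which fold proteins and are raised by heat shock factor, held 5 rises (17.9%) and 0 falls in 28 genes, with a median of -0.0089. Hspa1b gave 3.98, 3.14 and 4.31 at 4 h and 9.18, 8.99 and 8.36 at 8 h (1.12 ± 0.13, adjusted p = 5.3e-05). Hspa1a gave 3.12, 1.83 and 1.49 and then 4.23, 3.90 and 4.53 (0.88 ± 0.16, adjusted p = 0.00282), and these 2 genes are near-identical copies whose reads cannot be assigned with certainty. Hsph1, a partner of Hsp70, rose from 32.8, 32.4 and 27.0 to 46.2, 43.7 and 48.9, with no overlap (0.59 ± 0.088, adjusted p = 0.000578). These 3 passed in the 6 fits without a WT library, and EV cells had 6.81 ± 0.54 and 10.0 ± 1.6 of Hspa1b and 33.4 ± 4.0 and 39.6 ± 0.54 of Hsph1. Hspa4l (0.56) and Dnajb1 (0.27) rose too, and Dnajb1 did not pass without WT 4 h replicate 3 (0.0658). The promoter of Hsph1 is shown because it holds both motifs searched (250 bases before the second of 2 start sites, RefSeq, GRCm38.p6, minus strand, chr5:149636316-149636565), and capitals mark CACGTG.
Hsph1: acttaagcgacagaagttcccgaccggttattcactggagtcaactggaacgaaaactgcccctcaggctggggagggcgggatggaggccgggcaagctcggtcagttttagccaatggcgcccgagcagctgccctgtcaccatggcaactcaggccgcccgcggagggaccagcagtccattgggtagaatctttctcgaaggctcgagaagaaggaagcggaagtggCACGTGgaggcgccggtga
The heat shock motif, searched on both strands as GAA, any 2 bases, TTC, any 2 bases and GAA, lies after the start site, outside the printed bases, and occurred in 0.603% of all promoter windows. Its letters do not overlap CACGTG. Of Hspa1b, Hspa1a and Hsph1, 1 of 3 held each motif, Hsph1 in both cases, and the window of Hspa1b held neither. This count too is of genes and not of windows.

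Of 28 genes for cholesterol synthesis and uptake, 4 rose (14.3%) and 0 fell, with a median of 0.081. Dhcr7, the last enzyme of the pathway, gave 12.5, 11.6 and 9.36 at 4 h and 21.0, 17.6 and 20.1 at 8 h (0.79 ± 0.11, adjusted p = 0.000278), and EV cells had 10.6 ± 0.83 and 14.5 ± 0.85. Stard4, a cholesterol carrier, rose by 0.54 ± 0.11 and passed, like Dhcr7, in all 6 fits. Lss (0.44), another enzyme of the synthesis, was lost without WT 8 h replicate 1 (adjusted p = 0.0665). The median was higher in the other cells, 0.16 in EV, 0.26 in HEA and 0.14 in RA, and in HEA cells 13 of the 28 rose, beside 1.26% of all genes.

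**Figure D4:**
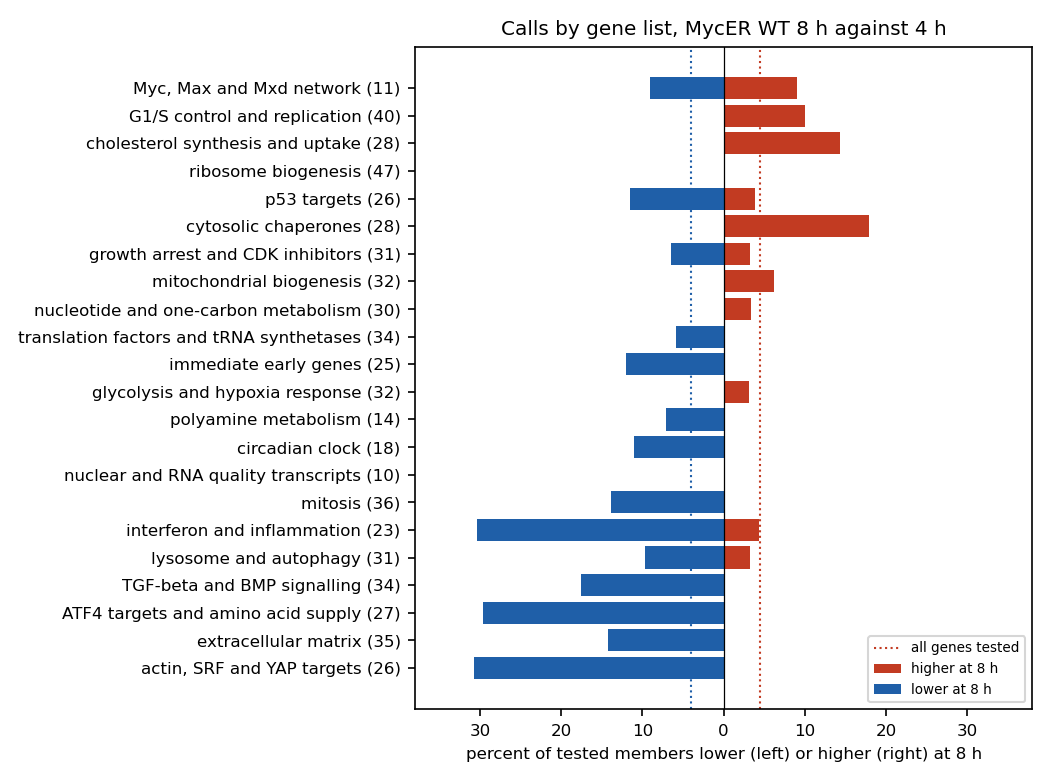
Bars give the percent of tested members of each gene list that fell (left, blue) or rose (right, red) from 4 h to 8 h in WT cells, and dotted lines the percents over all genes tested. The longest bars to the left are actin, SRF and YAP targets at 30.8%, interferon and inflammation at 30.4% and ATF4 targets at 29.6%, and the longest to the right is cytosolic chaperones at 17.9%.

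The remaining lists held few calls each, but several shares of falls stood above the 4% of all genes. They were 12% of immediate early genes, 11.5% of p53 targets, 11.1% of clock genes and 9.68% of lysosome and autophagy genes, each from 2 or 3 genes. Of growth arrest genes 6.45% fell, of polyamine genes 7.14% and of glycolysis and hypoxia genes 0%. Among p53 targets, Pidd1 rose by 0.77 ± 0.15 (3.45 ± 0.67 to 6.27 ± 1.4, adjusted p = 0.00458), while Perp (-0.36), Plk2 (-0.21) and Sesn2 (-0.56) fell, 1 and 3 of 26, and the falls were 2 without WT 4 h replicate 3 and 1 without WT 8 h replicate 1. Of 31 growth arrest genes Gadd45b (-0.32) and Sesn2 fell and Foxo4 (0.42) rose, and of 25 immediate early genes Egr3 (-0.83), Junb (-0.36) and Dusp5 (-0.63) fell. Of these 6 calls, that of Gadd45b alone held in all 6 fits. Among 31 lysosome and autophagy genes 1 rose, Gusb, and 3 fell, among them the autophagy receptor Sqstm1 (-0.29). Without WT 4 h replicate 3 the falls were 0, and without WT 8 h replicate 1 there was no call. Of 18 clock genes 2 fell. The clock output factor Tef fell from 32.0, 28.8 and 37.3 to 23.6, 21.8 and 20.8 (-0.55 ± 0.10, adjusted p = 0.0033), and the clock repressor Ciart by 0.53 (0.0349, and 0.139 without WT 4 h replicate 3). Pfkm, the muscle form of phosphofructokinase in glycolysis, rose by 0.53 ± 0.098 as the single call of 32 glycolysis and hypoxia genes, and Azin2, of polyamine control, fell by 0.70 ± 0.16 as the single call of 14, lost without WT 8 h replicate 1 (adjusted p = 0.0566) or WT 8 h replicate 2 (0.0517). None of 10 nuclear and RNA quality transcripts or of 11 tested fibroblast markers passed.

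The same interval was measured in EV cells, which share no library with this comparison. There 0 genes rose and 3 fell (0.0245% of those tested), or 1437 at an unadjusted p under 0.05. Without WT 4 h replicate 3, which enters here only through the shared spread, 3 rose and 6 fell. The 3, chosen here after their values were seen, were Gjb2, Slc4a4, a bicarbonate transporter, and Kcnk10, a potassium channel, and each fell in WT cells too. Slc4a4 went from 18.2 ± 0.37 to 12 ± 1.8 in EV cells and from 18 ± 1.4 to 11.8 ± 1.1 in WT cells, a change of -0.59 in both. Kcnk10 fell by 0.46 in EV cells and by 0.27 in WT cells, where its call was lost without WT 4 h replicate 3 (adjusted p = 0.0504). HEA cells gave 154 rises and 255 falls (3.33%) and RA cells 19 and 8 (0.22%).

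Genes that rose in WT cells tended to have the same sign in the other cells. Of the 547 rises, 86.5% had a change above 0 in EV cells, 82.8% in HEA and 94.9% in RA cells, beside 54.8%, 55.6% and 52.4% of all genes tested. Of the 491 falls, 22.4%, 25.3% and 15.3% were above 0. The changes in EV cells were smaller, with medians of 0.15 over the rises and -0.090 over the falls, beside 0.46 and -0.42 in WT cells, where the genes were chosen for their size.

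The difference between the time changes was tested directly. In WT against EV cells, the change differed for 2 genes (0.0163%), both lower in WT, and 1395 genes had an unadjusted p under 0.05. They were Smad3 (difference -0.48 ± 0.078) and Gcnt4 (-0.84 ± 0.14), each with an adjusted p of 0.0357. Gcnt4, an enzyme that branches sugar chains on proteins, gave 14.1, 14.3 and 16 in WT cells at 4 h and 7.05, 7.93 and 7.43 at 8 h, and 22, 16.2 and 20.2 and then 16.9, 19.0 and 18 in EV cells. The WT times were far apart and the EV times overlapped. Neither difference passed without WT 4 h replicate 3, nor without most other single libraries (adjusted p without it = 0.0696 for Smad3 and 0.11 for Gcnt4). Over 24 other settings Smad3 passed in 10 and Gcnt4 in 9, with differences of -0.53 to -0.45 and -0.93 to -0.66. For the other genes described above, a WT time change that differs from that in EV cells was not shown: Foxs1 came to -1.28 (adjusted p = 0.0591), Rasgrp3, Ccl7 and Chac1 to -0.82, -1.29 and -0.69 (0.0734 each), Mns1 to 0.90 (0.169) and Hspa1b to 0.61 (0.25).

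Against HEA cells 65 genes differed in their time change (0.53%), 30 above and 35 below 0, and 37 did so without WT 4 h replicate 3 and likewise without WT 8 h replicate 3. The count was 24 without WT 8 h replicate 1, 26, 29 and 114 without HEA 4 h replicates 1, 2 and 3, and 32 and 13 without HEA 8 h replicates 2 and 3. Chac1 gave 35.5, 33.5 and 36.5 in HEA cells at 4 h and 43.4, 50 and 50.5 at 8 h, the opposite of its fall in WT cells (difference -1.10 ± 0.13, adjusted p = 0.000949, and 0.00116 without that library). Mxd4 likewise differed by -1.22 ± 0.21 (0.0121, and 0.0303), with 22.7, 26.6 and 26.9 and then 30.6, 38.6 and 41.6 in HEA cells. Foxs1 (-1.17), Lrrc17 (-1.13) and Smad3 (-0.52) differed with and without that library, while Rasgrp3 (-0.77) and Gusb (0.62) did not pass without it (0.108 and 0.0627). Against RA cells 8 genes differed (0.0652%), all below 0, and 1 without WT 4 h replicate 3, WT 4 h replicate 1, WT 8 h replicate 1, RA 4 h replicate 1 or RA 8 h replicate 3. It was 2 to 5 without any of WT 4 h replicate 2, RA 4 h replicates 2 and 3 and RA 8 h replicates 1 and 2. Smad3 differed by -0.58 ± 0.078 (adjusted p = 0.00345, and 0.0115 without it), having stood at 44.1, 46.6 and 47.8 and then 46.7, 45.0 and 46.4 in RA cells. Foxs1 (-1.24), Mxd4 (-1.28), Gcnt4 (-0.76) and Chac1 (-0.72) passed only with that library.

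**Figure D5:**
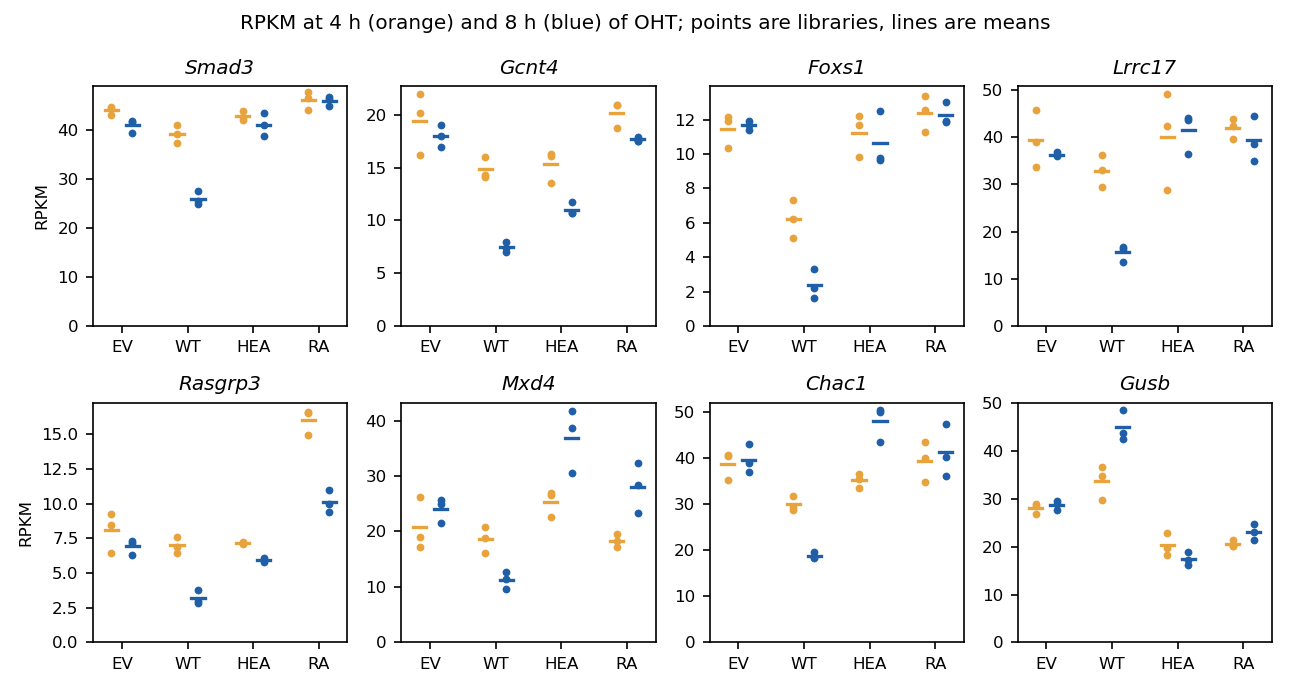
RPKM of 8 genes in EV, WT, HEA and RA cells at 4 h (orange) and 8 h (blue), where points are libraries and lines are means of 3. Smad3 drops to 25.9 in WT cells at 8 h and stays between 38.7 and 47.8 in all libraries of the other cells, and the 8 h libraries of Chac1 and Mxd4 lie below the 4 h ones in WT cells and above them in HEA cells.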

How the data were processed

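The authors deposited RPKM per gene and library, per the file headers. Tools listed, with no role or order, in the submitters' processing notes are featureCounts 1.4.5-p1, SAMtools, DESeq2, TopHat and TopHat2 2.0.8, with mm9 as build. Annotation, strand setting and treatment of duplicates were not given in the sources used here, so copies, overlapping and antisense genes cannot be told apart. Libraries were made with a stranded total RNA kit from column-purified RNA, per the labels' protocols. The authors' deposited comparisons against EV were not used.

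RPKM is not a count, so limma-trend (limma 3.58.1, R 4.3.3) was fitted to log2(RPKM + 0.5) of the 12268 genes, of 21671, that reached RPKM 1 in 3 or more libraries. The fit held all 24 libraries, 8 group means and 16 residual degrees of freedom, with Benjamini-Hochberg adjustment per comparison and a threshold of 0.05. The fit was tested on simulated reads, drawn with a single set spread for all genes and not that of the data. Between 4 h and 8 h it recovered 93% of 100 genes changed by 1 on the log2 scale and 13% of 100 changed by 0.5. The difference from EV recovered 43% and 1% of them. A gene without a call is therefore not shown to be unchanged. The steps between low RPKM values are worth 1 read each and gave whole reads for 100% of 362673 values above 0 (within 0.01 read). Depth was 9818317 to 12788102 reads, and a count of 0 allows up to 3 reads, 0.235 to 0.306 CPM, for counting error only. Chi-square per degree of freedom between libraries of a group was 1.43 to 17.8, so none was a duplicate. Limma-voom on the recovered reads was an alternative and called 578 rises and 434 falls.

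The members, gene lists and tests were chosen with earlier results of these data known. Genes were named by rule: Myc and Esr1, the 12 largest rises and falls of genes called with and without WT 4 h replicate 3 (no overlap, mean of at least 1 RPKM, leaving out predicted genes and families of many copies), up to 6 per direction from the difference with EV, the 3 members of smallest p per list, up to 2 against a list's majority, called members of the Myc network, and 15 leaders of the WT response from an earlier report. Other members called within a list are named with their values only. There were 22 gene lists and 6 lists of cell type markers. Alternatives were the pseudocount, the filter, quantile and median scaling, no intensity trend, only the groups compared, the replicate number as a block, voom and leaving out libraries. Promoters and start sites come from RefSeq (GRCm38.p6) by gene symbol, and no coordinate of the files' build is printed. Other steps ran in Python 3.11.15 (matplotlib 3.10.9, scipy 1.17.1, pandas 2.3.3, numpy 2.4.6). Some genes counted in the lists are not reported here by name.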

Additional observations from a re-analysis of the deposited data

Results flagged for a closer look

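The change from 4 h to 8 h differed between cells by a test of the difference itself. It differed between WT and EV cells for 2 genes, between WT and HEA cells for 65 and between WT and RA cells for 8. Without WT 4 h replicate 3 these counts were 0, 37 and 1. Against EV cells the differences on the log2 scale were -0.84 for Gcnt4 and -0.48 for Smad3, which passed in 9 and 10 of 24 other settings. Against HEA cells they were -1.17 for Foxs1, -1.13 for Lrrc17, -0.77 for Rasgrp3, -0.52 for Smad3, -1.10 for Chac1, 0.62 for Gusb and -1.22 for Mxd4. Against RA cells they were -1.24 for Foxs1, -0.76 for Gcnt4, -0.58 for Smad3, -0.72 for Chac1 and -1.28 for Mxd4. Without WT 4 h replicate 3, Rasgrp3 and Gusb did not pass against HEA cells, and against RA cells only Smad3 of these genes passed. Groups of 3 libraries are too small for a check of single outlying values.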

How the results depend on the processing

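The counts of rises and falls moved most with the libraries and the estimate of spread, and the cause was not tested. Leaving out each WT library in turn gave 126 to 678 rises and 164 to 449 falls, and without both WT libraries numbered 3 (chosen after seeing the data) there were 240 rises. With only the WT libraries in the fit there were 0 rises and 0 falls. Median centring gave 408 rises and 662 falls. With the replicate number as a block the counts were 142 and 200, with 0 genes differing from EV in either direction, 1 from HEA and 0 from RA. Same-numbered WT libraries deviated from their means with correlations of -0.46, -0.00024 and -0.60, and WT libraries of unlike number with -0.40 to 0.60. In EV cells the same-numbered pairs gave 0.10, 0.091 and 0.020. Whether libraries share an origin, under these numbers or others, was not tested. Genes whose change exceeded that in EV numbered 0, but 1 without a filter, 2 with quantile normalisation and 1 with only the groups compared. Genes below EV, 2 as reported, were 22 with quantile normalisation, 1 with median centring, 0 without the intensity trend, with only the groups compared, without both libraries numbered 3 and without the 3 farthest WT and EV libraries (the last also chosen after seeing the data), and 0 to 13 when single libraries were left out. Against HEA the 65 became 103 with quantile normalisation, 2 with only the groups compared, 39 without both libraries numbered 3 and 13 to 114 by single libraries. Against RA the 8 became 4 without the intensity trend, 0 with only the groups compared, 1 with voom, 22 without both libraries numbered 3 and 1 to 6 by single libraries. No named call changed sign, while of 12 named genes without a call, 5 (Myc, Esr1, Adamts4, Nynrin and Angptl4) changed sign when a single WT library was left out. With only the WT libraries 75 of the 75 named calls were lost, 24 under the block, 17 without WT 4 h replicate 3 and 31 without WT 8 h replicate 1. Slc38a3 and Ppargc1b, for which no test is given, are counted in the 75. Depth limits the genes near 1 RPKM most.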
